A study of Arabidopsis thaliana with 6 samples.

Results

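The genes described are the 5 ethylene receptors of Arabidopsis thaliana, ETR1 (AT1G66340), ERS1 (AT2G40940), ETR2 (AT3G23150), ERS2 (AT1G04310) and EIN4 (AT3G04580), the membrane protein EIN2 (AT5G03280), the transcription factors EIN3 (AT3G20770) and EIL1 (AT2G27050), and the F-box proteins EBF1 (AT2G25490) and EBF2 (AT5G25350). They were chosen by locus identifier from the pathway as it is known, with earlier results of these data also known. All 10 were among the 24487 genes with expression values. RNA came from whole seedlings, 4 days old, which had germinated and grown in continuous darkness at 22 °C after at least 3 days in the cold and dark. There were 3 libraries labelled wild type and 3 labelled atino80-6, a mutant line named after INO80, the ATPase of a chromatin remodelling complex. The labels name no treatment with ethylene or its precursor. Neither the nature of the atino80-6 allele nor the source of the repeats (separate cultures or one) is given, so each p-value measures the spread between libraries, which may be technical.

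Ethylene is a gas hormone that shapes dark-grown seedlings: it keeps the apical hook closed, thickens the hypocotyl and protects the seedling as it grows through soil. The receptors sit in the endoplasmic reticulum membrane and work in reverse, since they are active without the hormone and, through the kinase CTR1, keep EIN2 silent. When ethylene binds, EIN2 is cleaved, its end moves to the nucleus, and EIN3 and EIL1, which EBF1 and EBF2 otherwise mark for destruction, build up and switch on ethylene-responsive genes. Several of those genes encode parts of the pathway itself: transcripts of ETR2, ERS1, ERS2 and EBF2 are known to increase with ethylene in Arabidopsis.

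The libraries held between 18446028 and 24156610 reads, and a pathway member had between 405 and 10936 reads in a single library, so none of the 10 rests on a handful of reads. INO80 transcripts were at 31.4, 34.7 and 32.3 FPKM (fragments scaled by transcript length and by sequencing depth) in wild type and at 158, 185 and 187 FPKM in the libraries labelled atino80-6. The gene after which the line is named was thus higher there, at 5.40-fold, and each direction given here rests on the labels as deposited. Wild type 1 lay below the wild type mean for all 10 members, by log2 deviations from -0.18 to -0.01, and wild type 2 lay above it for all 10. Of the libraries labelled atino80-6, the third had 8 members above its group's mean.

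Among the 10 members, 8 fell and 1 rose in the libraries labelled atino80-6, and ETR1 did not pass the test. Omitting wild type 2 or 3 or atino80-6 1 or 2 left 5 members called lower. The test was limma on log2 normalized counts over the 20222 genes whose mean reached 10 normalized counts, with Benjamini-Hochberg adjustment and a threshold of 0.05. Of all genes tested, 34.2% passed it, 16.6% as lower and 17.7% as higher. This balance turned with the scaling, from 3351 lower and 3572 higher to 3943 and 3134 with equal library totals and to 3884 and 3306 with quantile normalization. Among the 8358 genes whose mean reached 500 normalized counts, a level that each member exceeded, 37.1% passed, 18.7% as lower. The median log2 change of the members was -0.35, against 0.00 over all tested genes. The median size of a member's change, whatever its direction, was 0.35 on the log2 scale, against 0.29 over all tested genes, 0.21 over those whose mean reached 500 and 0.73 over the genes that passed. The libraries of the genotypes did not overlap for 9 of the 10 members, as for 48.3% of all tested genes. In RNA from whole seedlings, fewer cells of a type and less RNA per cell cannot be told apart.

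**Figure D1:**
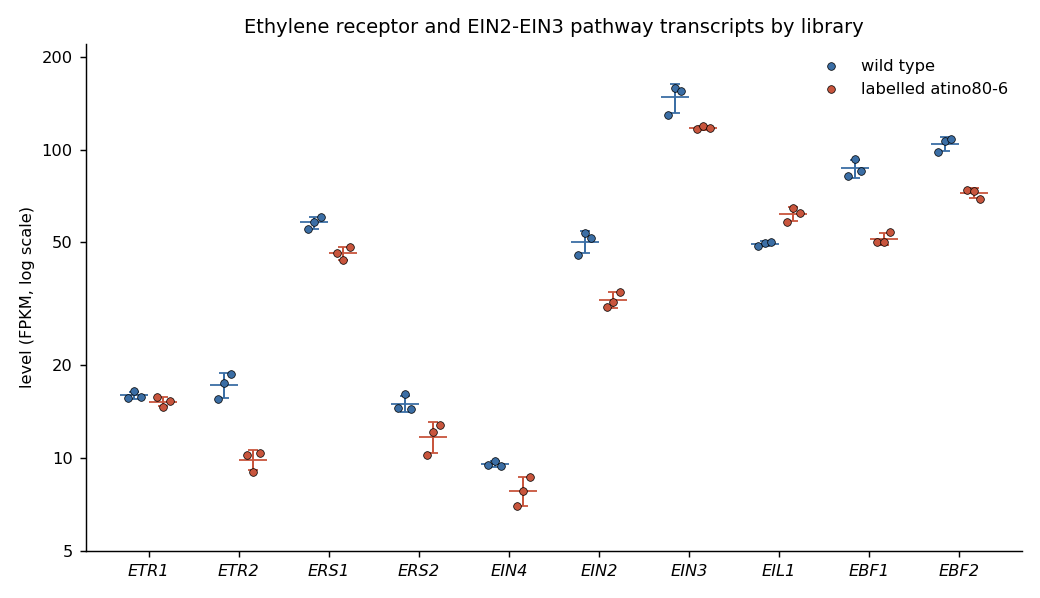
Levels of the 10 pathway transcripts in FPKM on a log axis, with 1 point per library, the mean as a long bar and the standard deviation as whiskers (n = 3 per genotype). Wild type points lie above those labelled atino80-6 for all genes except ETR1, whose points overlap, and EIL1, where the order is the opposite.

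ETR2, a receptor of subfamily II, had the largest log2 change of the 10 with all libraries, within a standard error of that of EBF1. Without wild type 3 the order turned, at -0.74 for ETR2 and -0.77 for EBF1. ETR2 was at 15.5, 17.5 and 18.8 FPKM in wild type and at 10.2, 9.03 and 10.4 FPKM in the libraries labelled atino80-6. Every wild type library was above every library of the other genotype. The mean fell 1.75-fold, from 17.3 ± 1.63 to 9.87 ± 0.727 FPKM (SD, n = 3 each), a log2 change of -0.80 ± 0.10 (standard error; limma adjusted p = 0.00039). It passed the threshold in all 17 alternative fits, with log2 changes between -0.91 and -0.74.

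The other members of subfamily II fell less. ERS2, which lacks the receiver domain of the larger receptors, was at 14.5, 16.1 and 14.5 FPKM in wild type and at 10.2, 12.1 and 12.8 FPKM in the libraries labelled atino80-6. EIN4, a receptor with a receiver domain, was at 9.48, 9.77 and 9.40 FPKM in wild type and at 6.98, 7.82 and 8.67 FPKM in the others. For both genes the genotypes did not overlap, and the first atino80-6 library was the lowest. The log2 change of ERS2 was -0.36 ± 0.10 (1.28-fold lower; limma adjusted p = 0.025, from 0.012 to 0.098 over the alternatives). That of EIN4 was -0.29 ± 0.10 (1.22-fold lower; limma adjusted p = 0.046, from 0.017 to 0.14 over the alternatives). ERS2 lost its call when wild type 2, wild type 3, atino80-6 1 or atino80-6 2 was left out, and EIN4 when any library except atino80-6 3 was left out.

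Subfamily I, whose members carry a working histidine kinase, was split. ERS1 was the most abundant receptor, at 55.3, 58.5 and 60.4 FPKM in wild type and at 46.1, 43.9 and 48.2 FPKM in the libraries labelled atino80-6. Its mean fell 1.26-fold, with a log2 change of -0.33 ± 0.07 (limma adjusted p = 0.0087), and it kept its call in all 17 alternatives. ETR1, the receptor through which the pathway was first defined by mutants, was at 15.6, 16.5 and 15.8 FPKM in wild type and at 15.7, 14.7 and 15.3 FPKM in the others. The ranges of the genotypes overlapped, the log2 change was -0.07 ± 0.07 (limma adjusted p = 0.50), and no alternative brought it past the threshold (lowest adjusted p = 0.25, with equal library totals). In the reference annotation the neighbouring gene AT1G66345 overlaps ETR1 on the same strand and AT2G40935 overlaps ERS1 on the opposite strand. AT1G66345 had means of 2.40 FPKM in wild type and 4.04 FPKM in the libraries labelled atino80-6, against 15.96 and 15.24 FPKM for ETR1. AT2G40935 had means of 7.22 and 5.06 FPKM, against 58.0 and 46.1 FPKM for ERS1. These neighbours changed by 0.76 and -0.51 on the log2 scale (limma adjusted p = 0.013 and 0.0085). The strand setting of the counting is not given in the sources used here, and the part of the neighbours in the receptor values was not tested.

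Added up per length, the 5 receptor transcripts came to 110.5, 118 and 119 FPKM in wild type and to 89.3, 87.6 and 95.4 FPKM in the libraries labelled atino80-6. The mean of the sum was 116 ± 4.65 FPKM in wild type and 90.7 ± 4.12 FPKM in the others (SD, n = 3 each), a ratio of 0.783, and the genotypes did not overlap. The share of ERS1 was 50.1% ± 0.701 in wild type and 50.8% ± 0.806 in the others, with overlapping ranges. The share of ETR2 went from 14.9% ± 0.879 to 10.9% ± 0.566, and that of ETR1 from 13.8% ± 0.465 to 16.8% ± 0.780, without overlap. The shares of ERS2 (13.0% and 12.9%) and EIN4 (8.25% and 8.62%) overlapped between the genotypes. Subfamily I as a whole took 64.2%, 63.4% and 64.1% in wild type and 69.3%, 66.9% and 66.6% in the others. The ratio of ETR1 to ETR2 transcripts was at 1.01, 0.943 and 0.839 in wild type and at 1.54, 1.63 and 1.48 in the libraries labelled atino80-6, so ETR1 exceeded ETR2 in each of the latter. With 3 libraries against 3, an exact two-sided permutation test cannot go below p = 0.1, and no p is given for these sums and ratios.

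**Figure D2:**
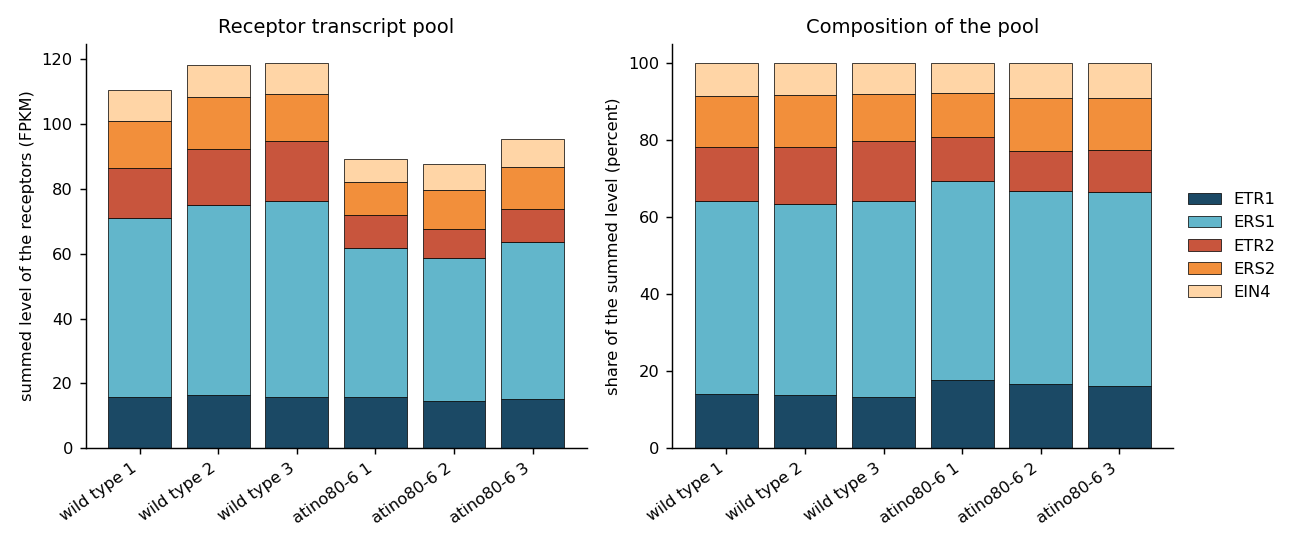
Summed FPKM of the 5 receptor transcripts in each library (left) and the percent share of each receptor in that sum (right), as stacked bars. The sum is 110.5 to 119 FPKM in wild type and 87.6 to 95.4 FPKM in the libraries labelled atino80-6, where the ETR2 segment is narrower and the ETR1 segment wider.

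EIN2 is the membrane protein that the receptors keep silent through CTR1. Its transcripts were at 45.7, 53.7 and 51.5 FPKM in wild type and at 30.9, 32.2 and 34.6 FPKM in the libraries labelled atino80-6. The mean fell 1.55-fold, from 50.3 ± 4.12 to 32.5 ± 1.89 FPKM (SD, n = 3 each), a log2 change of -0.63 ± 0.09 (limma adjusted p = 0.00089). The genotypes did not overlap, and the call held in all 17 alternatives.

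The transcription factors EIN3 and EIL1, which act largely in parallel, moved in opposite directions. EIN3, the most abundant member, was at 129.6, 159 and 154 FPKM in wild type and at 116, 119 and 117 FPKM in the libraries labelled atino80-6. Wild type 1 lay closer to the other genotype than to the remaining wild type libraries. The log2 change of EIN3 was -0.32 ± 0.10 (1.25-fold lower; limma adjusted p = 0.031, from 0.0018 to 0.13 over the alternatives). The call was lost when any library except wild type 1 was left out. EIL1, its close relative, was at 48.6, 49.8 and 50.3 FPKM in wild type and at 58.4, 64.9 and 62.4 FPKM in the others. It was the member that rose, by 1.25-fold, with a log2 change of 0.32 ± 0.07 (limma adjusted p = 0.0089), and it kept its call in all 17 alternatives. The ratio of EIN3 to EIL1 transcripts, per length, was 2.67, 3.19 and 3.07 in wild type and 1.99, 1.84 and 1.88 in the libraries labelled atino80-6. Their sum was 197 ± 16.5 FPKM in wild type and 179 ± 4.55 FPKM in the others, with overlapping ranges (178 to 208 and 175 to 184 FPKM).

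EBF1 and EBF2, the F-box proteins that bring EIN3 and EIL1 to the proteasome, both fell. EBF1 was at 82.4, 93.5 and 85.0 FPKM in wild type and at 50.1, 50.2 and 54.0 FPKM in the libraries labelled atino80-6. Its mean fell 1.69-fold, from 87.0 ± 5.82 to 51.4 ± 2.26 FPKM (SD, n = 3 each), a log2 change of -0.76 ± 0.08 (limma adjusted p = 0.00019). EBF2 was at 98.5, 107 and 108 FPKM in wild type and at 74.2, 73.4 and 69.1 FPKM in the others. Its mean fell 1.45-fold, with a log2 change of -0.53 ± 0.08 (limma adjusted p = 0.00097). Neither gene overlapped between the genotypes, and both kept their calls in all 17 alternatives. The annotation lists AT5G25340 and the antisense transcript AT5G03965 on the strand opposite EBF2; AT5G25340 had 6 reads over the wild type libraries and 2 over the others, and AT5G03965 was not analysed here.

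Set against the factors they remove, EBF1 plus EBF2 transcripts stood at 1.01, 0.961 and 0.944 times EIN3 plus EIL1 in wild type and at 0.710, 0.671 and 0.686 times in the libraries labelled atino80-6, per length. The means were 0.973 ± 0.0370 and 0.689 ± 0.0196 (SD, n = 3 each), without overlap. This ratio is one of transcripts only, and protein levels are not part of these data. The summed F-box transcripts were 191 ± 9.83 FPKM in wild type and 124 ± 0.544 FPKM in the others, a ratio of 0.646, against 0.911 for the sum of EIN3 and EIL1. Within the pair, EBF2 exceeded EBF1 in every library, with ratios of 1.195, 1.14 and 1.27 in wild type and 1.48, 1.46 and 1.28 in the libraries labelled atino80-6. The third of these lay just above wild type 3.

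**Figure D3:**
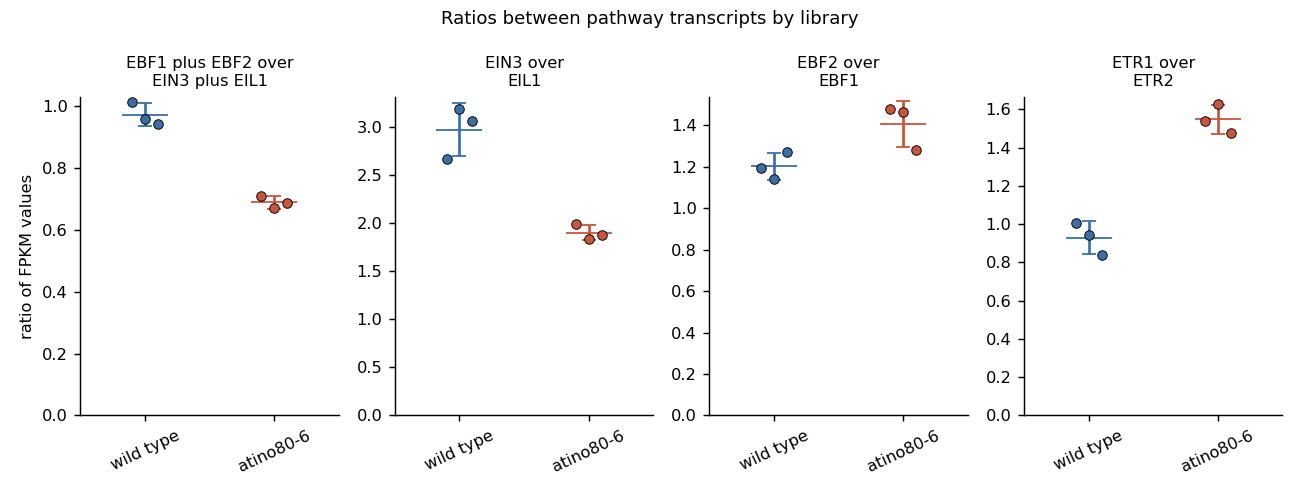
Ratios of FPKM values in each library, with the mean as a long bar and the standard deviation as whiskers (n = 3 per genotype); each axis starts at 0. The ratio of the F-box transcripts to EIN3 plus EIL1 and that of EIN3 to EIL1 are lower in the libraries labelled atino80-6, and those of EBF2 to EBF1 and of ETR1 to ETR2 are higher.

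Ordered by level per length in wild type, EIN3 stood first at 148 FPKM, followed by EBF2 (104), EBF1 (87.0), ERS1 (58.0), EIN2 (50.3), EIL1 (49.6), ETR2 (17.3), ETR1 (15.96), ERS2 (15.02) and EIN4 (9.55). Neighbours whose libraries overlapped were EIN2 and EIL1, ETR2 and ETR1, and ETR1 and ERS2, and these cannot be ordered beyond their spread. In the libraries labelled atino80-6 the order was EIN3 (118), EBF2 (72.2), EIL1 (61.9), EBF1 (51.4), ERS1 (46.1), EIN2 (32.5), ETR1 (15.2), ERS2 (11.7), ETR2 (9.87) and EIN4 (7.83), and only ERS2 and ETR2 overlapped as neighbours. EIL1 lay below EBF1 and ERS1 in each wild type library and above both in each library of the other genotype. ETR2 overlapped ETR1 in wild type and lay below it, without overlap, in the others.

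The authors' deposited table gave the same direction for each of the 10 genes. In the authors' deposited table the log2 changes were -0.81 for ETR2, -0.76 for EBF1, -0.63 for EIN2, -0.53 for EBF2 and 0.32 for EIL1. In the authors' deposited table ERS1, ERS2 and EIN3 also passed (adjusted p = 0.00087, 0.017 and 0.0052), while EIN4 did not (log2 change -0.29, adjusted p = 0.065) and ETR1 did not (-0.07, adjusted p = 0.65). There, 31.2% of the genes with an adjusted p were below 0.05.

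**Figure D4:**
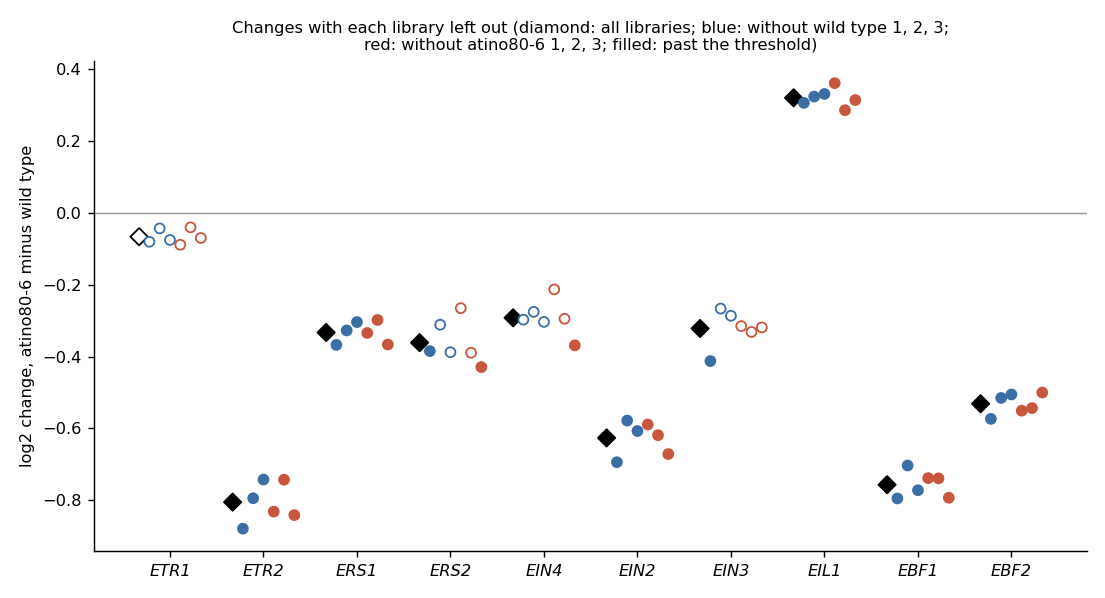
Log2 change of each member from the fit with all libraries (black diamonds) and with each library left out in turn (circles, blue without a wild type library and red without an atino80-6 library, in replicate order); filled symbols passed the threshold of 0.05. ETR2, ERS1, EIN2, EIL1, EBF1 and EBF2 are filled throughout, ERS2, EIN4 and EIN3 turn open for most omissions, and ETR1 is open throughout.

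Of 18 other genes of ethylene signalling, 16 were tested, 2 rose, 3 fell and 11 did not pass, with a median log2 change of -0.04. A share near this passed among all tested genes (34.2%). The largest fall was in ARL, an ARGOS-like protein that promotes organ growth, from 57.6 ± 5.27 to 35.5 ± 2.37 FPKM (SD, n = 3 each; log2 change -0.70 ± 0.09, limma adjusted p = 0.00067). ENAP1, a nuclear partner of the EIN2 end, fell by 0.34 ± 0.07 on the log2 scale (limma adjusted p = 0.0062), and EER4, a TAF12-type factor, by 0.34 ± 0.11 (limma adjusted p = 0.042). ETP1, an F-box protein that limits EIN2 protein, rose 1.33-fold from 17.8 ± 0.389 to 23.7 ± 2.14 FPKM (log2 change 0.41 ± 0.09, limma adjusted p = 0.0084). EIL4, a little-studied relative of EIN3, rose 2.63-fold, from 1.05, 1.95 and 1.60 FPKM in wild type to 4.24, 5.57 and 2.27 FPKM (limma adjusted p = 0.019). EIL4 missed the threshold on omission of wild type 1, atino80-6 1 or atino80-6 2, and EER4 on omission of wild type 2 or 3 or of atino80-6 1 or 2 and with FPKM as deposited (adjusted p from 0.059 to 0.15 in limma). CTR1, the kinase between the receptors and EIN2, named after its values were seen, was at 26.2, 27.7 and 27.2 FPKM in wild type and at 22.4, 24.8 and 23.1 FPKM in the others. The ranges of CTR1 did not overlap, and its log2 change of -0.21 ± 0.07 did not pass (limma adjusted p = 0.054, from 0.022 to 0.17 over the alternatives).

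**Figure D5:**
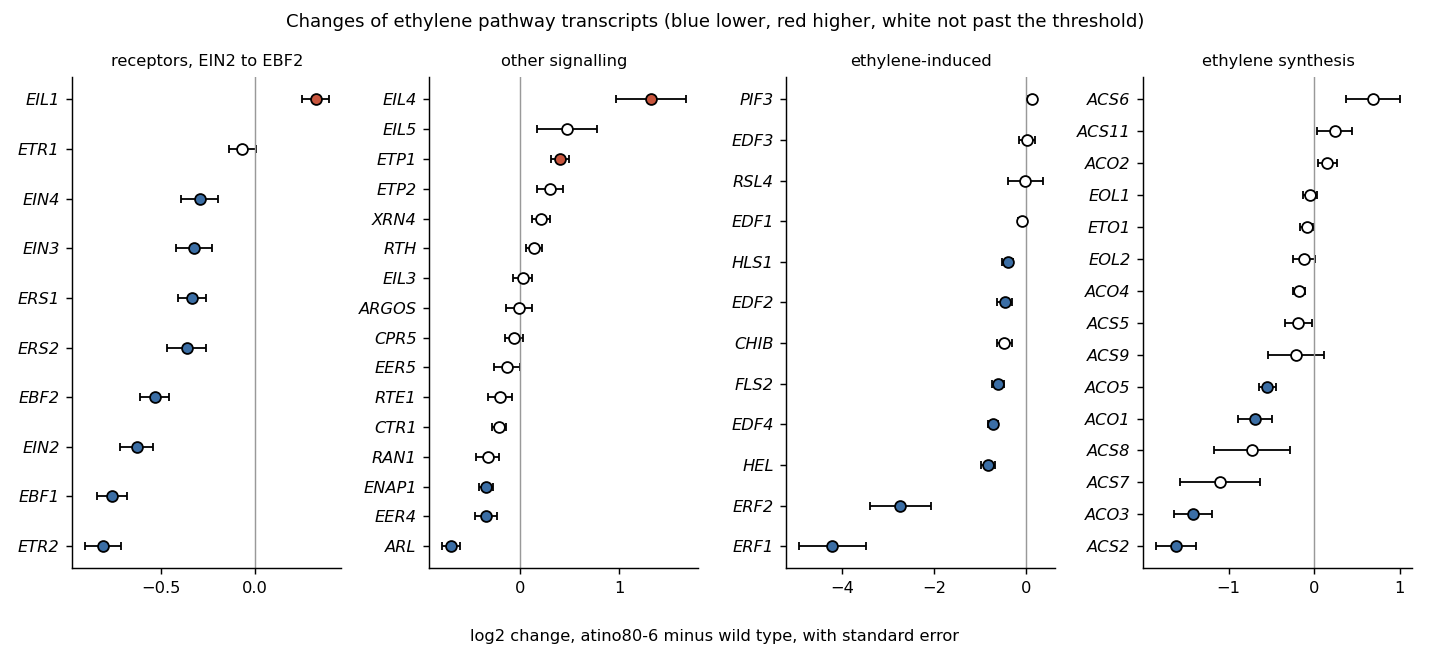
Log2 changes (atino80-6 minus wild type) with standard errors from limma for the tested genes of the pathway and of the lists of other signalling genes, ethylene-induced genes and ethylene synthesis genes, each panel with its own axis. Blue symbols passed as lower, red as higher and white did not pass: 8 and 1 of 10 pathway members, 3 and 2 of 16 other signalling genes, 7 and 0 of 12 ethylene-induced genes, and 4 and 0 of 15 synthesis genes.

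Of 14 genes known to be induced through EIN3 or by ethylene, 12 were tested, of which 7 fell, 0 rose and 5 did not pass, with a median log2 change of -0.47. Among all tested genes 34.2% passed, 16.6% as lower. The factors ERF1 and ERF2 changed most. ERF1 was at 14.7, 1.77 and 3.35 FPKM in wild type and at 0.115, 0.147 and 0.391 FPKM in the libraries labelled atino80-6, and ERF2 at 49.2, 5.50 and 15.5 FPKM against 1.66, 2.29 and 3.51 FPKM. Wild type 1 was far above the other libraries for both. The log2 change of ERF1 was -4.22 with all libraries, -3.36 without wild type 1 and -4.87 without wild type 2. That of ERF2 was -2.74, -1.94 and -3.51 in the same fits, and neither passed in limma voom (adjusted p = 0.063 and 0.092), nor ERF2 in limma with robust empirical Bayes (adjusted p = 0.067). Adjusted p with all libraries was 0.0026 for ERF1 and 0.013 for ERF2 in limma, and over the alternatives it ran from 0.00094 to 0.063 and from 0.0019 to 0.092. HEL, a hevein-like defence protein, fell 1.76-fold, EDF4, a RAV-type factor, 1.63-fold, and FLS2, the flagellin receptor, 1.51-fold, each with its call in all 17 alternatives. EDF2 fell 1.38-fold (limma adjusted p = 0.048), a call lost in 8 alternatives, at adjusted p from 0.0501 to 0.14. HLS1, which is needed for the apical hook and is named after its values were seen, was the last of the 7, at 1.32-fold lower (limma adjusted p = 0.038). Omitting replicate 1 or 3 of either genotype, or both wild type 1 and atino80-6 3, ended the call of HLS1.

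Of 16 genes of ethylene synthesis, 15 were tested, of which 4 fell, 0 rose and 11 did not pass, with a median log2 change of -0.18. Of all tested genes 34.2% passed, 16.6% as lower. ACS2, an ACC synthase, fell 3.16-fold, ACO3 2.67-fold and ACO5 1.46-fold, each with its call in all 17 alternatives. ACO1 fell 1.60-fold (limma adjusted p = 0.029), and the same omissions ended its call.

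Organ markers were compared to see whether the seedlings differed in make-up. Summed levels of 4 root genes ran from 40.9 to 58.5 FPKM in wild type and from 41.0 to 51.0 FPKM in the libraries labelled atino80-6. Those of 4 shoot genes ran from 237 to 249 FPKM in wild type and from 188 to 217 FPKM in the others, without overlap. SCR of the root fell by 0.33 and AS1 of the leaf primordia by 0.40 on the log2 scale (limma adjusted p = 0.0088 and 0.012), and the other 6 tested markers did not pass. The share of all tested genes that passed was 34.2%, with 16.6% as lower. The flower markers AG and AP3 were at 0 in 3 and 4 of the 6 libraries, with sums of at most 0.0969 FPKM. The median log2 change was -0.33 for the 4 root genes and -0.19 for the 4 shoot genes, with 3 below 0 and 1 above 0 in each list. The part of organ make-up in the lower pathway transcripts was not tested.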

How the data were processed

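Per the labels, TRIzol was used to extract total RNA for the 6 libraries, DNase to remove genomic DNA, and a TruSeq RNA kit to build them. FastQC, cutadapt, HISAT2, SAMtools, featureCounts, DESeq2, deepTools and the TAIR10 genome build are listed in the submitters' processing notes; versions, annotation and strand setting are not given in the sources used here. The deposited table holds FPKM values, scaled between libraries by the authors. A second deposited table holds the mean signal (normalized counts over all libraries), the log2 fold change with its error, a score (change over error) and the p-value and adjusted p-value of the authors' DESeq2 comparison, per the file headers.

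For each gene, the ratio of mean signal to mean FPKM converted its FPKM values to normalized counts. Multiplied by a size factor per library, 146922 of 146922 values were whole reads to within 0.01. The tests used limma 3.58.1 in R 4.3.3 on log2 of normalized counts plus 1, a linear model on genotype with empirical Bayes and an abundance trend, two-sided, for genes whose mean reached 10; the code was tested on simulated data. Log2 changes are on that scale, whereas folds are ratios of mean FPKM. No count model was run on the recovered reads beyond limma voom. Names, strand and overlapping genes came from RefSeq TAIR10.1, matched by identifier for 24255 genes; because that is not the authors' build, no coordinates or sequences are printed. Python 3.11.15 with pandas 2.3.3, numpy 2.4.6 and matplotlib 3.10.9 made the tables and figures.

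The members, the 9 gene lists, the tests and the alternatives were chosen with earlier results of these data known. Named were all members, INO80, and from each other list up to 6 genes past the threshold by size of change, except where the text says that a gene was named after its values were seen. For the called members with the largest changes, the 3 genes of most similar pattern were also named. Alternatives were pseudocounts of 0.5 and 5, no filter, quantile normalization, equal library totals, a minimum mean of 50, limma voom, the repeat number as a block, robust empirical Bayes, FPKM as deposited with a pseudocount of 0.1, and each library left out. The fit without wild type 1 and atino80-6 3, and the share among genes whose mean reached 500, were added after seeing the data.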

Additional observations from a re-analysis of the deposited data

How the results depend on the processing

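The direction of each of the 10 members was the same in all 17 alternative fits. ETR2, ERS1, EIN2, EIL1, EBF1 and EBF2 passed in each, and ETR1 in none. With single libraries left out, the members called lower numbered 5 to 7 (8 with all) and those called higher 1. For other signalling genes the ranges were 1 to 3 higher and 2 to 5 lower, for ethylene-induced genes 0 to 0 and 5 to 7, for synthesis genes 0 to 1 and 3 to 5, and for cytokinin genes 0 to 1 and 1 to 4. All genes called higher ranged from 2549 to 3867 and lower from 2316 to 3545. Equal library totals, quantile normalization and the omission of both wild type 1 and atino80-6 3 gave 5 other signalling genes lower (3 in the main count). Without those libraries 5 cytokinin genes fell, against 2. No filter gave 1 synthesis gene higher, and limma voom gave 4 ethylene-induced genes lower, against 7. The cause of these shifts was not tested. Deviations of same-numbered libraries had correlations of 0.03, -0.19 and -0.10, against -0.15 to 0.25 for libraries of different number. With 3 libraries per genotype these values show no pairing by number but cannot exclude it. With the replicate block 7 of the 9 members kept their call, and EIN4 (adjusted p = 0.079) and EIN3 (0.056) did not; nor did EDF2 (0.081), HLS1 (0.058) and ACO1 (0.054). EIN4 also lost its call with FPKM as deposited (adjusted p = 0.063). The ratios of the genotypes for the receptor sum, the receptor shares and the F-box ratio were recomputed with equal library totals (which cannot move a share or the F-box ratio), with normalized counts in place of values per length, and without each library, and moved by less than their spread; the other alternatives were not run on them.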

Other observations

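The cytokinin receptors and phosphotransfer proteins belong to the same two-component family as the ethylene receptors. Of 10 such genes 9 were tested, of which 1 rose, 2 fell and 6 did not pass, with a median log2 change of -0.18; among all tested genes 34.2% passed. AHK2, a cytokinin receptor, fell 1.45-fold, from 15.7 ± 1.06 to 10.8 ± 1.40 FPKM (SD, n = 3 each; limma adjusted p = 0.0043), in all 17 alternatives. AHP5, a phosphotransfer protein, fell 1.32-fold (limma adjusted p = 0.023), a call lost without wild type 2, atino80-6 1 or atino80-6 2. AHK5, a histidine kinase, rose 1.38-fold (limma adjusted p = 0.024), a call that ended on omission of wild type 2 or 3 or of atino80-6 1 or 2. Of the 3 core subunits with which EBF1 and EBF2 form a ubiquitin ligase, 0 passed in limma (median log2 change -0.06), and 0 were below an unadjusted p of 0.05. Against the 34.2% of all tested genes that passed, a count of 0 among 3 genes does not set them apart.

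Over the 6 libraries, the genes whose log2 values ran most like those of ETR2 were AT4G12230, AT4G13160 and AT3G17770, each with a Pearson correlation of 0.998. For EBF1 they were GSTU10, a glutathione transferase gene, AT1G26240, an extensin gene, and AT5G27950, at 0.9995, 0.9995 and 0.9993. The 6 points share genotype as their main source of difference, and 1074 and 1321 of 17186 genes reached a correlation of 0.95 with ETR2 and EBF1. These values are a description of likeness in 6 libraries.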
